A study of Mus musculus with 62 samples.

Results

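CD11b+ brain cells of mice that carried the APP/PS1 transgenes and lacked Nlrp3 were compared at 12 months with those of mice that lacked Nlrp3 and carried no transgenes. The compared libraries were 4 of APPPS1_NLRP3_12m (genotype APP/PS1.NLRP3-/-, replicates 43, 44, 46 and 49) and 4 of NLRP3_12m (genotype NLRP3-/-, replicates 42, 45, 47 and 48), which make 8 of the 62 libraries of the series. They were chosen by genotype and age, and titles with the tag Mxo4, whose meaning the labels do not give, were left aside. Both groups lack Nlrp3, so the comparison shows what differed with the transgenes where the inflammasome sensor was missing from every library. The same difference was set beside it at 6 months (APPPS1_NLRP3_6m, 5 libraries, and NLRP3_6m, 4), with the tag at 12 months (APPPS1_NLRP3_12m_Mxo4, 3, and NLRP3_12m_Mxo4, 3) and with intact Nlrp3 at 12 months (APPPS1_12m, 5, and wild-type WT_12m, 3). The labels name neither the mouse line and promoter of the transgenes nor the Nlrp3 allele. They do not say whether libraries came from separate animals or from pools. The p-values speak of the spread within groups over all 62 libraries, which were fitted together, and that spread may be technical. In sorted cells read as bulk RNA, fewer cells of a type and less RNA per cell cannot be told apart.

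APP/PS1 mice deposit amyloid-beta in the brain as they age. CD11b is an integrin chain of myeloid cells, and in the brain most CD11b+ cells are microglia. Microglia that touch plaques are known to switch on a programme of lipid handling, lysosomal and growth factor genes through the receptor Trem2 and its adaptor Tyrobp, and to lower genes of the resting state. NLRP3 assembles an inflammasome that activates caspase-1, which cleaves pro-interleukin-1 beta and gasdermin D. The cytokine genes themselves are switched on by NF-kB, whereas the antiviral programme is driven by type I interferons through factors that include Stat2 and Irf9.

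Values per library are CPM, counts divided by library total and TMM size factor, given in the order of replicates 43, 44, 46 and 49 for APPPS1_NLRP3_12m and 42, 45, 47 and 48 for NLRP3_12m. Nlrp3 itself (chr11:59541568-59566956, + strand) lay at 0.492, 0.757, 0.651 and 2.27 CPM in APPPS1_NLRP3_12m and 0.975, 0, 0.795 and 0.171 CPM in NLRP3_12m. All 8 values were far under the 80.7 to 182.6 CPM of APPPS1_12m and the 60.4 to 100.9 CPM of WT_12m. Totals ran from 11579029 to 25282933 counts in APPPS1_NLRP3_12m and from 1394435 to 21275592 in NLRP3_12m, where replicate 45 was the shallow one and the next lowest held 17075205. Read from Xist and Y-linked genes, all 8 libraries were male, whereas all 8 libraries of APPPS1_12m and WT_12m were female. APPPS1_NLRP3_6m held 2 females and 3 males, NLRP3_6m 3 females and 1 male, APPPS1_NLRP3_12m_Mxo4 2 females and 1 male, and NLRP3_12m_Mxo4 1 female and 2 males. The CD11b+ and microglia markers summed to 33640 to 41370 CPM in APPPS1_NLRP3_12m and 32560 to 41480 CPM in NLRP3_12m, so the labelled cell type was present in both groups.

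A pair of libraries stood apart. In APPPS1_NLRP3_12m replicate 43, Slc1a3, the glutamate transporter Glast, lay at 201.7 CPM, against 2160 to 2478 CPM in the other 3 libraries of the group and 1170 to 2930 CPM in NLRP3_12m. That value was close to the 191.6 to 260.6 CPM of APPPS1_12m, although Nlrp3 in replicate 43 was as low as in the rest. NLRP3_12m replicate 47 was the highest of the 8 libraries in summed neuron, oligodendrocyte and Slc1a3-free astrocyte markers, with 1290 CPM over neuron markers, against 85.0 to 837.8 CPM in APPPS1_NLRP3_12m and 167.7 to 511.1 CPM in the other NLRP3_12m libraries. A gene named here kept its call when any 1 of the 8 libraries was left out, unless a replicate is given beside it.

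In all, 1735 of 19865 genes tested (8.73%) differed between APPPS1_NLRP3_12m and NLRP3_12m at an adjusted p under 0.05 with edgeR's quasi-likelihood test. Of these, 1105 were higher in APPPS1_NLRP3_12m (5.56% of all genes) and 630 were lower (3.17%), and 253 were predicted or unnamed. The 5.56% and 3.17% are the shares beside which the counts of list members below are to be read. The median log2 difference was 0.84 among the rises and −0.73 among the falls, beside −0.05 over all genes, and 458 rises lay above 1 and 241 falls below −1. In 889 of the rises and 348 of the falls the groups did not overlap, and over all genes 6.96% had every APPPS1_NLRP3_12m library above every NLRP3_12m library and 3.68% had every one below. The call held in all 8 fits that left out 1 library for 645 rises (3.25% of all genes) and 158 falls (0.795%). With another scaling (RLE size factors) 1771 genes were called, 973 higher and 798 lower. Without replicate 43 the count was 1179 and without replicate 47 it was 1362. Within the libraries whose titles carry 1 as the second number 703 genes were called. Of those that carry 2, replicate 42 was the only NLRP3_12m library, so no count is given for them. In a fit of the 8 libraries alone 534 were called, 441 higher and 93 lower, of which 524 were among the 1735. Of the gene results followed through the alternatives, 48 lost their call in that fit and 84 kept direction and call. Calls lost there are marked below only for Gsdmd and the largest falls.

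Cst7, which encodes the cysteine protease inhibitor cystatin F (chr2:150570415-150578944, + strand), was at 1746, 1651, 1662 and 1096 CPM in APPPS1_NLRP3_12m and 12.8, 18.9, 6.54 and 12.3 CPM in NLRP3_12m. The lowest APPPS1_NLRP3_12m library, replicate 49, was still far above the highest NLRP3_12m library. Its log2 difference was 7.05 ± 0.69, adjusted p = 6.80e-10. Other genes with the largest rises, among those averaging at least 5 CPM in either group, were nearly silent without the transgenes. Trpm1, a cation channel known from melanocytes and retina, had 1237 counts over the 4 APPPS1_NLRP3_12m libraries and 2 counts over the 4 NLRP3_12m libraries, a ratio at equal depth of 507 (95% interval 140.1 to 4191, counting error only). The magnesium channel gene Trpm6 had 679 counts in APPPS1_NLRP3_12m and 2 in NLRP3_12m (ratio 278.3, 76.8 to 2303). Baiap2l2, which binds curved membranes and actin, rose by 7.28 ± 0.87 on the log2 scale, Minar1 by 7.18 ± 0.96, the Wnt pathway antagonist Dkk2 by 6.43 ± 0.96 and the collagen cross-linking enzyme Lox by 6.55 ± 0.75. The osteoclast proton pump subunit Atp6v0d2 rose by 6.24 ± 0.98.

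Of 17 tested receptors and membrane proteins known from plaque-associated microglia, 13 rose and 0 fell, with a median log2 difference of 1.42, and all 13 calls held in every leave-out. Members named beyond the 4 with the smallest adjusted p of a list, genes named beyond 6 per difference test, and Clec7a, a pseudogene by its annotation, were chosen after their values were seen. Clec7a, the beta-glucan receptor Dectin-1, which GENCODE lists as a polymorphic pseudogene, lay at 1023, 865, 908 and 661 CPM in APPPS1_NLRP3_12m and 73.7, 26.9, 46.4 and 33.2 CPM in NLRP3_12m. It rose by 4.17 ± 0.45, adjusted p = 1.13e-08. Itgax, the integrin chain CD11c, was at 220.5, 173, 274 and 201 CPM in APPPS1_NLRP3_12m and 17.9, 15.97, 8.52 and 10.4 CPM in NLRP3_12m. Every library with the transgenes was high and the groups did not overlap (log2 difference 4.12 ± 0.48, adjusted p = 2.88e-08). Axl, a receptor tyrosine kinase that binds phosphatidylserine through Gas6, rose by 3.31 ± 0.40, and Cd274, which encodes PD-L1, by 1.94 ± 0.26. Trem2 rose by 1.003 ± 0.21, with 2175, 1513, 2010 and 1463 CPM in APPPS1_NLRP3_12m and 928, 1010, 721 and 864 CPM in NLRP3_12m. Its signalling adaptor Tyrobp rose by 1.33 ± 0.24 and the tetraspanins Cd63 and Cd9 by 1.73 ± 0.23 and 1.19 ± 0.22.

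Among 21 genes for secreted growth factors and matrix, 8 rose and 0 fell, with a median of 0.73. Spp1, which encodes osteopontin, lay at 495, 613, 735 and 437 CPM in APPPS1_NLRP3_12m and 30.6, 13.1, 15.1 and 11.6 CPM in NLRP3_12m, so the groups were widely apart (log2 difference 4.95 ± 0.63, adjusted p = 1.86e-07). Igf1, a trophic hormone, was at 201, 107, 97.8 and 112 CPM in APPPS1_NLRP3_12m and 15.8, 5.81, 18.1 and 9.69 CPM in NLRP3_12m. Replicate 43 was the highest of the transgenic libraries, and no library overlapped with the other group (log2 difference 3.21 ± 0.46, adjusted p = 2.64e-06). Csf1, the growth factor that sustains microglia, rose by 2.37 ± 0.33, and the macrophage elastase gene Mmp12 by 2.08 ± 0.36. Gpnmb, a glycoprotein of lipid-laden macrophages, varied among the transgenic libraries, at 24.2, 35.5, 181 and 58.1 CPM in APPPS1_NLRP3_12m and 0.67, 0, 2.12 and 0.285 CPM in NLRP3_12m. Replicate 46 held over 3 times the level of any other, and the rise of 6.13 ± 1.05 held without it.

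**Figure D1:**
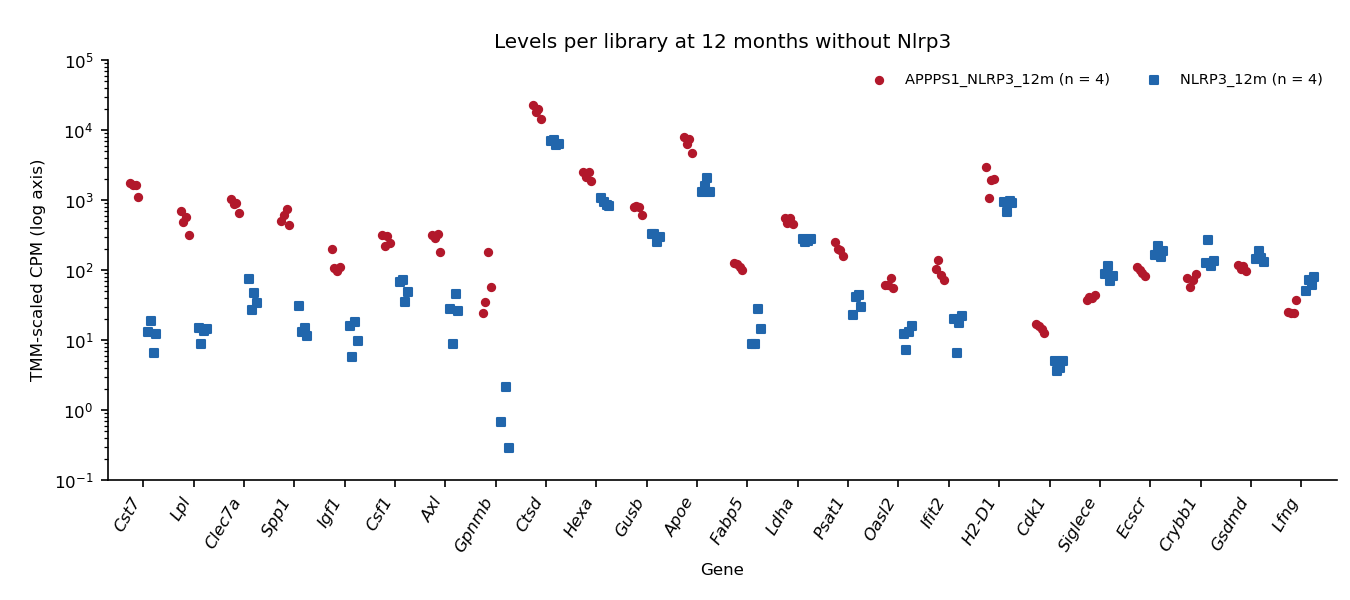
TMM-scaled CPM on a log axis for 24 genes, with 1 point per library, in 4 APPPS1_NLRP3_12m libraries (red circles) and 4 NLRP3_12m libraries (blue squares). Cst7 lay at 1096 CPM or more in every APPPS1_NLRP3_12m library and at 18.9 CPM or less in every NLRP3_12m library, and the 0 CPM of Gpnmb in NLRP3_12m replicate 45 lies below the axis.

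Lysosomal genes were raised as a broad group. Of 26 hydrolases, membrane proteins and proton pump subunits, 18 rose and 0 fell (median 0.63), and 17 of the calls held in every leave-out. The beta-glucuronidase gene Gusb was at 797, 817, 790.5 and 606 CPM in APPPS1_NLRP3_12m and 326, 327, 253 and 293 CPM in NLRP3_12m, a rise of 1.32 ± 0.15, adjusted p = 2.57e-08. Hexa, a subunit of the hexosaminidase that degrades GM2 ganglioside, lay at 2519, 2098, 2535 and 1849 CPM in APPPS1_NLRP3_12m and 1054, 939, 838 and 809.5 CPM in NLRP3_12m. In both genes every transgenic library was above every library without the transgenes. Glb1, which encodes beta-galactosidase, rose by 1.21 ± 0.17, Cd68 by 1.18 ± 0.19, the cholesterol carrier Npc2 by 1.04 ± 0.17 and Lamp1 by 0.65 ± 0.13. Of 15 cystatins and cathepsins 7 rose and 0 fell (median 0.40). Ctsd, the aspartic protease cathepsin D, was at 22440, 18000, 20130 and 14130 CPM in APPPS1_NLRP3_12m and 6855, 7297, 6029 and 6400 CPM in NLRP3_12m. It rose by 1.47 ± 0.25, adjusted p = 4.81e-05, and the cysteine proteases Ctsb, Ctsz and Ctsl rose by 1.34 ± 0.20, 1.27 ± 0.21 and 1.24 ± 0.22.

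The promoters of these genes were searched on both strands for CACGTG, the core of the element through which Tfeb is known to bind lysosomal genes, in windows of 250 bases before to 50 after the start site (RefSeq, GRCm38.p6). Of all 27025 genes with a promoter of that length 2187 (8.09%) held it in at least 1 of their promoters. Of the lysosomal list 6 of 19 with a promoter in the table (31.6%) held it, and of the cystatins and cathepsins 5 of 12 (41.7%). Among these 11 members 7 rose. Other lists also lay above the share of all genes with a promoter, among them cholesterol synthesis with 4 of 17 (23.5%), APP processing with 3 of 15 and glycolysis with 4 of 21. TCACNCCAC, a form of the sterol regulatory element, was searched in the same way. It was in 388 of all genes with a promoter (1.44%) and 1 of the 17 of cholesterol synthesis. Glb1, of the lysosomal list, and Ctsd, of the cathepsins, are printed as the members with CACGTG and the smallest adjusted p, in the gene's 5′ to 3′ direction, with each match in capitals.
Glb1 promoter (chr9:114400828-114401127, + strand): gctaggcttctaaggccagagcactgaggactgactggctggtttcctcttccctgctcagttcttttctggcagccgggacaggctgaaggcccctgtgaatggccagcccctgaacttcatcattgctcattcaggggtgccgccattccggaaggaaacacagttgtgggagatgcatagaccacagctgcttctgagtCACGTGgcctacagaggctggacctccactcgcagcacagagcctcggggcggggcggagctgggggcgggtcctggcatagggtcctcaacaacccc
Ctsd promoter (chr7:142387778-142388077, − strand): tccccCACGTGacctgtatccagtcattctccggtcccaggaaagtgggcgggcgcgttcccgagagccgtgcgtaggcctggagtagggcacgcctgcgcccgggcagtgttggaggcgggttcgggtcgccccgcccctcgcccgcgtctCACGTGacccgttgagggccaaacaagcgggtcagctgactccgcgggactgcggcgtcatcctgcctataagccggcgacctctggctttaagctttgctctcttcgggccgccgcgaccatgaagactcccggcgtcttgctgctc
The Glb1 promoter held 1 match and the Ctsd promoter 2. A match describes the letters only and is no evidence of binding in these cells.

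Genes of lipoprotein uptake rose in part. Of 19 tested, 8 rose and 0 fell, and all 8 calls held in every leave-out, although the median was 0.13. Lpl, which hydrolyses lipoprotein triglycerides, was at 688, 491, 575 and 316 CPM in APPPS1_NLRP3_12m and 14.9, 8.71, 13.3 and 14.4 CPM in NLRP3_12m, and Apoe, the main lipid carrier of the brain, at 7925, 6331, 7488 and 4685 CPM in APPPS1_NLRP3_12m and 1300, 1593, 2039 and 1294 CPM in NLRP3_12m. Replicate 49 was the lowest of the transgenic libraries in both genes, and neither gene had overlapping groups. Lpl rose by 5.20 ± 0.49, adjusted p = 3.75e-10 and Apoe by 2.10 ± 0.36, adjusted p = 4.34e-05. Ch25h, which makes 25-hydroxycholesterol, rose by 4.53 ± 0.55, the lipoprotein receptor gene Scarb1 by 1.06 ± 0.16, and Soat1, which esterifies cholesterol for storage, by 0.87 ± 0.16. Among 22 genes of lipid droplets and fatty acids, 7 rose and 1 fell (median 0.07). The fatty acid carrier Fabp5 was at 128, 122, 111 and 101 CPM in APPPS1_NLRP3_12m and 8.83, 8.71, 28.2 and 14.5 CPM in NLRP3_12m and rose by 2.79 ± 0.48, and its relative Fabp3 rose by 2.84 ± 0.52. Acaca, the first committed enzyme of fatty acid synthesis, rose by 2.42 ± 0.32 and the droplet coat gene Plin2 by 1.06 ± 0.21. The member that fell was Mgll, which cleaves monoacylglycerols, at −0.67 ± 0.17, a call lost without replicate 47. Cholesterol synthesis genes moved in the same direction, with 10 of 23 higher and 0 lower (median 0.53). Sc5d rose by 0.84 ± 0.14, the squalene synthase gene Fdft1 by 0.68 ± 0.11 and Cyp51 by 0.88 ± 0.17.

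Glycolytic genes were higher, with 11 of 22 rising, 1 falling and a median of 0.55. Ldha, which makes lactate, was at 554, 475, 556 and 449 CPM in APPPS1_NLRP3_12m and 277, 248, 257 and 276 CPM in NLRP3_12m, with no overlap and a rise of 0.93 ± 0.14, adjusted p = 1.03e-05. Pkm, Pgam1 and Pfkl rose by 1.01 ± 0.17, 0.76 ± 0.12 and 0.84 ± 0.15, and the lactate exporter Slc16a3 by 1.01 ± 0.21. The gene that fell was Pfkm, the muscle-type phosphofructokinase, at −0.86 ± 0.25 (lost without 43, 44, 46 or 47). Of 20 genes of the hypoxia response 5 rose and 0 fell. Hif1a, the oxygen-regulated transcription factor, was at 912, 861, 797 and 656 CPM in APPPS1_NLRP3_12m and 249, 218, 180.4 and 217 CPM in NLRP3_12m, a rise of 1.88 ± 0.21, adjusted p = 1.94e-08. The prolyl hydroxylase gene Egln3, a known target of that factor, rose by 5.15 ± 0.57, Bnip3 by 1.01 ± 0.17 and Ero1l by 0.77 ± 0.14. Of 23 genes of oxidative phosphorylation, 1 rose, the complex I subunit Ndufa1 (log2 difference 1.21 ± 0.25, adjusted p = 8.45e-04), beside a median of 0.08. Over all genes 5.56% rose. In serine synthesis and one-carbon metabolism 5 of 21 rose, led by Psat1, which makes phosphoserine, at 249, 201, 194 and 158 CPM in APPPS1_NLRP3_12m and 22.5, 41.4, 44.1 and 29.8 CPM in NLRP3_12m. It rose by 2.53 ± 0.31, adjusted p = 8.48e-08, and no other call of this list held in every leave-out. In glutamine and glutamate metabolism, 3 of 29 rose and 1 fell (median −0.06), and 1 to 7 were called when 1 library was left out. The cytosolic transaminase Got1 rose by 1.01 ± 0.20, adjusted p = 4.22e-04, with 102, 84.6, 111 and 89.9 CPM in APPPS1_NLRP3_12m and 41.5, 73.3, 46.8 and 43.1 CPM in NLRP3_12m. Its call held in every leave-out, whereas those of Got2 (lost without 42, 43, 45 or 46), Slc38a1 (without 42, 43, 44, 46, 47 or 48) and Idh2, which fell (without 42, 43, 44, 48 or 49), did not.

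Most genes of the antiviral programme rose. Of 33 type I interferon response genes 28 rose and 0 fell, the median was 1.43, and in 30 of the 33 every APPPS1_NLRP3_12m library was above every NLRP3_12m library. Calls held in every leave-out for 22, and between 24 and 28 were made whichever library was left out. Oasl2, a relative of the RNA-sensing oligoadenylate synthetases, was at 60.6, 61.1, 77.9 and 55.6 CPM in APPPS1_NLRP3_12m and 12.1, 7.26, 13.2 and 15.8 CPM in NLRP3_12m. Ifit2, which blocks translation of foreign RNA, was at 102, 139, 84.1 and 71.2 CPM in APPPS1_NLRP3_12m and 19.7, 6.53, 17.8 and 21.8 CPM in NLRP3_12m. The libraries with the transgenes were about evenly high, in both genes without overlap, and the rises were 2.32 ± 0.36, adjusted p = 1.04e-05 and 2.42 ± 0.39, adjusted p = 1.97e-05. Usp18, which removes Isg15 and dampens the receptor, rose by 1.97 ± 0.32, and Ifit3 by 2.08 ± 0.34, a gene with a near-identical copy, Ifit3b (1.70 ± 0.39), so that reads may be split between them. Among regulators, Irf7 rose by 1.41 ± 0.30, Stat2 by 0.65 ± 0.17 (lost without 48) and Irf9 by 0.47 ± 0.12 (lost without 46). The chemokine gene Cxcl10 was at 75.1, 74.8, 79.7 and 82.9 CPM in APPPS1_NLRP3_12m and 49.5, 26.1, 26.8 and 45.5 CPM in NLRP3_12m, a rise of 1.02 ± 0.21, adjusted p = 8.61e-04. Of 23 tested interferon receptors, sensors and their regulators 2 rose and 2 fell (median −0.02). Ifnar2, a chain of the receptor, rose by 0.49 ± 0.11, and Adar, which edits double-stranded RNA, by 0.59 ± 0.14. Tmem173, which encodes the DNA-pathway adaptor STING, was at 341, 314, 318 and 314 CPM in APPPS1_NLRP3_12m and 462, 527, 405 and 483 CPM in NLRP3_12m and lay lower in every transgenic library (−0.59 ± 0.13, adjusted p = 0.00134). The feedback inhibitor Socs3 fell by 0.72 ± 0.23, a call that was lost without 42, 44, 45, 46, 48 or 49.

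**Figure D2:**
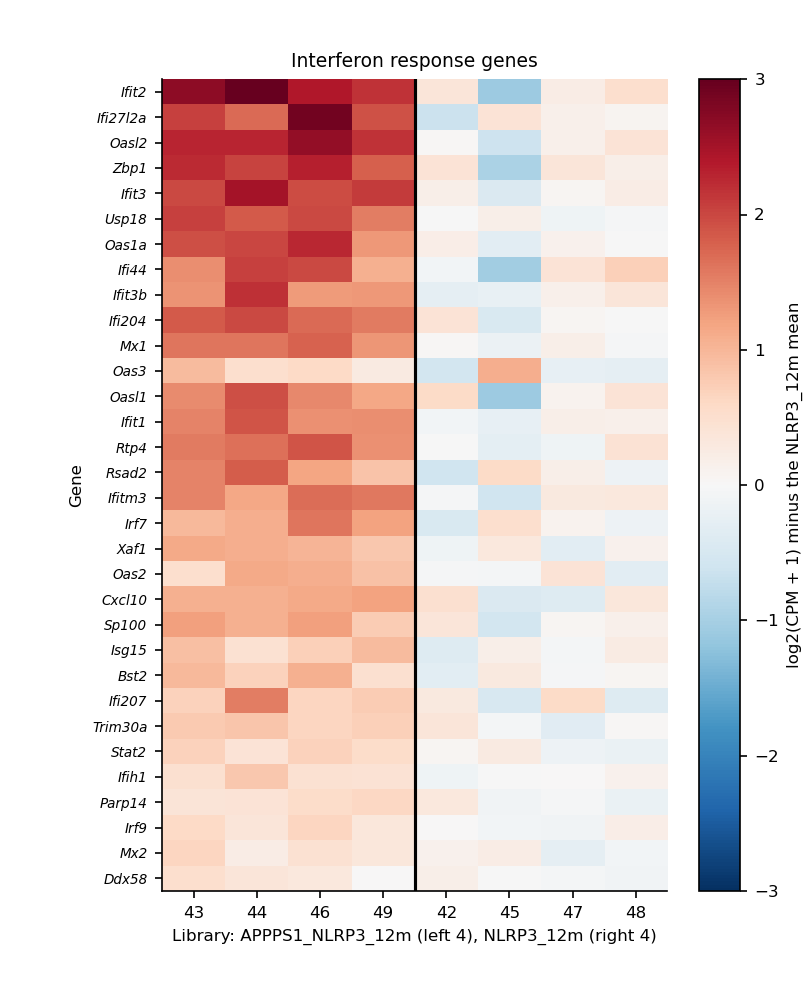
Heat map of 32 type I interferon response genes (rows) in 4 APPPS1_NLRP3_12m libraries (left) and 4 NLRP3_12m libraries (right), coloured by log2(CPM + 1) minus the mean of NLRP3_12m. All values of the left block were above 0, from 0.01 to 3.12, and the rows are ordered by the fitted log2 difference.

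The interferon-stimulated response element is read by a complex that holds Stat2 and Irf9, and its core, GAAA and GAAA with any 2 bases between them, was searched on both strands of the same windows. It was in 1079 of 27025 genes with a promoter (3.99%) and in 15 of the 23 interferon response genes with a promoter in the table (65.2%), of which 12 rose and 3 were not called. In the MHC class I list 4 of 17 held it (23.5%) and in the NF-kB list 0 of 20. Ifit3 and Oas1a are printed, with matches in capitals, as members with more than 1 match.
Ifit3 promoter (chr19:34583279-34583578, + strand): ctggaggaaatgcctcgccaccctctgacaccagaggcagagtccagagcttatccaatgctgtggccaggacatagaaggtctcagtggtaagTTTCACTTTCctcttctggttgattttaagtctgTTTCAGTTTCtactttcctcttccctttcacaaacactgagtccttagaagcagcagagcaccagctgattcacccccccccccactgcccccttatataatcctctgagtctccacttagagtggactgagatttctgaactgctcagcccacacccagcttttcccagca
Oas1a promoter (chr5:120907476-120907775, − strand): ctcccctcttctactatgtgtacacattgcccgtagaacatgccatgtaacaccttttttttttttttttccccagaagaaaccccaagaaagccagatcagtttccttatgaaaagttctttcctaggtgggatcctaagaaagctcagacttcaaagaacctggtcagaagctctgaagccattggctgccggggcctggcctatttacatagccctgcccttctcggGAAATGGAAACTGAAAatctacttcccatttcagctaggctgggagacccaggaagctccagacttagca
In Ifit3 both matches lie on the opposite strand, so the capitals show the reverse complement of the motif, and in Oas1a the 2 matches overlap. Oas1a rose by 1.96 ± 0.34.

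MHC class I genes, which show peptides to CD8 T cells and are induced by interferons, were higher with a narrower margin. Of 19 tested 12 rose and 0 fell (median 0.57), but 4 calls held in every leave-out, and 5 to 14 were made when 1 library was left out. H2-D1, a classical class I heavy chain, was at 2966, 1057, 1954 and 1972 CPM in APPPS1_NLRP3_12m and 946, 685, 958 and 907 CPM in NLRP3_12m. Replicate 43 was the highest and replicate 44 the lowest of the transgenic libraries, and the groups did not overlap (log2 difference 1.20 ± 0.26, adjusted p = 0.00107). B2m, the light chain, rose by 1.05 ± 0.21, H2-M3 by 1.13 ± 0.22 and H2-T23 by 0.72 ± 0.14, and H2-K1 by 0.77 ± 0.19 (lost without 43). Class I genes are near copies of each other, so reads may be shared among them. In the MHC class II list 1 of 13 rose (5.56% of all genes rose), H2-Ob at 0.81 ± 0.15.

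Without Nlrp3, fewer cytokine genes rose with the transgenes at 12 months than at 6 months. At 12 months without Nlrp3, 5 of 29 NF-kB cytokines, chemokines and feedback genes rose and 0 fell, with a median of 0.02. At 6 months 22 of the 29 rose (6.19% of all genes rose there) with a median of 1.17. With RLE size factors the 6-month split was 850 higher and 1005 lower, where the TMM fit gave 1229 and 389, and the median of all genes there was −0.15 instead of −0.04. In the tagged 12-month pair 7 of the 29 rose (3.56% of all genes rose there) with a median of 0.16. With intact Nlrp3 at 12 months 17 of the 29 rose (11.1% of all genes rose there) with a median of 1.02. Il1b was at 816, 1073, 1025 and 1273 CPM in APPPS1_NLRP3_12m and 1095, 947, 418 and 689.5 CPM in NLRP3_12m. The groups overlapped, and the difference of 0.41 ± 0.31, adjusted p = 0.481 did not pass. Within the libraries of second title number 1 it was 0.76. Within those of number 2, where replicate 42 was the only NLRP3_12m library, it was −0.19. Its level averaged 1047 ± 187.4 CPM in APPPS1_NLRP3_12m and 787.5 ± 298.1 CPM in NLRP3_12m (SD, n = 4 each), but 1367 ± 303.8 CPM in APPPS1_NLRP3_6m (n = 5) and 253.4 ± 72.0 CPM in NLRP3_6m (n = 4). Between the ages, the means with the transgenes overlapped within 1 SD, and those without the transgenes did not. Tnf was at 292, 363, 314 and 365 CPM in APPPS1_NLRP3_12m and 474, 394, 189.5 and 435 CPM in NLRP3_12m (−0.17 ± 0.23, adjusted p = 0.737), against 411.1 ± 63.2 CPM in APPPS1_NLRP3_6m and 134.3 ± 19.9 CPM in NLRP3_6m. Cd83, an activation marker, averaged 2746 ± 329.4 CPM in APPPS1_NLRP3_12m and 2784 ± 845.2 CPM in NLRP3_12m, beside 3540 ± 878.4 CPM in APPPS1_NLRP3_6m and 1236 ± 177.1 CPM in NLRP3_6m. In all 3 genes NLRP3_12m averaged above NLRP3_6m, a difference between ages that was not itself tested.

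The difference of the differences, 12 months minus 6 months, was tested over all genes. It was called in 11 genes, all lower (0.0554% of genes), where 1383 had an unadjusted p under 0.05 (6.96%, with 2.92% higher and 4.04% lower). Of these 11, 1 was a predicted gene. Tnf differed by −1.78 ± 0.32 (adjusted p = 0.0147), Cd83 by −1.56 ± 0.32 (adjusted p = 0.0285), Il1a by −1.47 ± 0.30 (adjusted p = 0.0285) and Il1b by −2.02 ± 0.44 (adjusted p = 0.0491). The inhibitor gene Nfkbib differed by −1.36 ± 0.28 (adjusted p = 0.0285), the apoptosis inhibitor Birc3 by −1.07 ± 0.21 (adjusted p = 0.0285), and Lfng, which modifies Notch receptors, by −1.10 ± 0.22 (adjusted p = 0.0285). Dusp2, Rnf19b and Marcksl1 were the others, at −1.40 ± 0.29, −1.17 ± 0.24 and −1.67 ± 0.32. An unadjusted p under 0.05 was found for 22 of the 29 genes of the NF-kB list, against 6.96% of all genes. The calls were fragile. With RLE size factors 1 gene was called. None of the 10 named genes kept its call in every leave-out, the count ran from 0 to 27 when 1 library was left out, and it was 27 without replicate 47 and 0 without 42, 43, 46 or 48 of the 12-month groups or 30, 32 or 33 of the 6-month groups. Sex differs between the 2 pairs of groups, and its part in the difference was not tested. Immediate-early genes, induced when cells are dissociated, summed to 10880 to 16110 CPM in APPPS1_NLRP3_12m and 15550 to 20630 CPM in NLRP3_12m, beside 10330 to 27750 CPM in APPPS1_NLRP3_6m and 15920 to 22140 CPM in NLRP3_6m. Their part was not tested either.

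**Figure D3:**
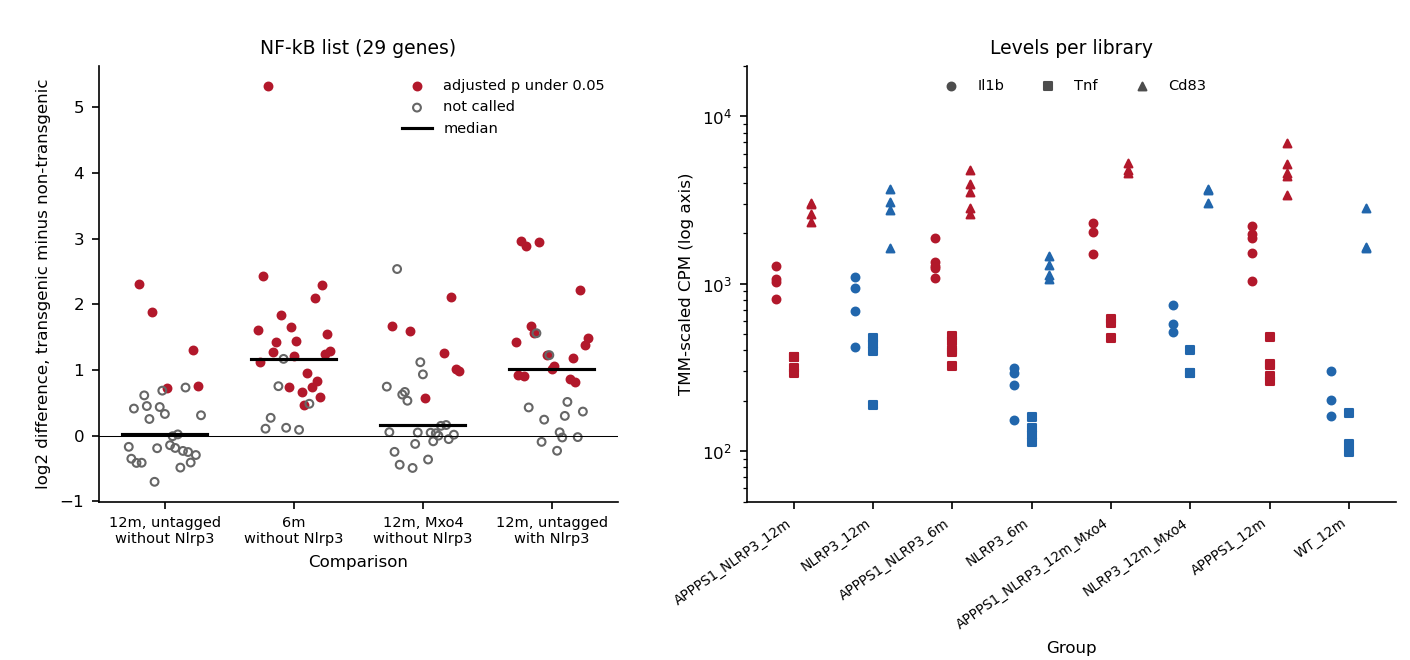
Left, log2 differences (transgenic minus non-transgenic) of 29 NF-kB list genes in 4 comparisons, filled where called, with the median as a bar. Right, TMM-scaled CPM per library (log axis) of Il1b (circles), Tnf (squares) and Cd83 (triangles) in 8 groups, transgenic in red and non-transgenic in blue, where the 12-month groups without Nlrp3 and without the tag overlap and the 6-month groups do not.

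Members that did rise at 12 months were Ccl6, a macrophage chemokine, at 877, 712, 747 and 648 CPM in APPPS1_NLRP3_12m and 215, 191, 184 and 204 CPM in NLRP3_12m. It rose by 1.88 ± 0.30, adjusted p = 1.51e-05 without overlap. Cxcl16, a membrane-bound chemokine, rose by 0.73 ± 0.15 and Tlr2, a receptor for bacterial lipoproteins, by 0.75 ± 0.20 (lost without 47). Ptgs2, the inducible cyclooxygenase, was at 67.7, 137, 104 and 119.5 CPM in APPPS1_NLRP3_12m and 65.7, 37.02, 32.5 and 35.1 CPM in NLRP3_12m and rose by 1.31 ± 0.33, with the highest library without transgenes, replicate 42, just under the lowest with them. Il12b rose by 2.31 ± 0.76 (lost without 44, 45, 46, 47, 48 or 49). For NF-kB 1 exact sequence of its site, GGGAA followed directly by TTTCC, was searched on both strands, and other forms of the site were not. It was in 29 of 27025 genes with a promoter (0.107%) and in 3 of the 20 list members with a promoter in the table. These were Nfkbia, Cxcl1 and Cxcl2, of which 0 were called at 12 months. Nfkbia encodes the inhibitor of NF-kB and Cxcl1 a neutrophil chemokine. Both promoters are printed because the members with this exact sequence were not among those called. In Nfkbia the match lies on the opposite strand.
Nfkbia promoter (chr12:55492598-55492897, − strand): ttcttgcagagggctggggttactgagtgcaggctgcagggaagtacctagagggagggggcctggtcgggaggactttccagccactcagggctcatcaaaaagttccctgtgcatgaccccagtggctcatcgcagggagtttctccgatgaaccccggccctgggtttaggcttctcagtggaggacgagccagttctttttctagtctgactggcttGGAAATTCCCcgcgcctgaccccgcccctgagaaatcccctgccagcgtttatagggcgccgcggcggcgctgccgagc
Cxcl1 promoter (chr5:90890995-90891294, + strand): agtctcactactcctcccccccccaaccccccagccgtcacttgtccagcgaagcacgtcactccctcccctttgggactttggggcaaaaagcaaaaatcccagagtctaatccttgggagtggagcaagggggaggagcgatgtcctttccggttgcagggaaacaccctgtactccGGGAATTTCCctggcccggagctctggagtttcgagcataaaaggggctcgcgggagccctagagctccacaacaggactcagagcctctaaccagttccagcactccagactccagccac
Nfkbia was at 798, 616, 627 and 798 CPM in APPPS1_NLRP3_12m and 1075, 994, 726 and 1176 CPM in NLRP3_12m, where all transgenic libraries were below 3 of the 4 others but overlapped with replicate 47 (−0.49 ± 0.21, adjusted p = 0.153), and Cxcl1 was at 16.99, 60.1, 30.3 and 40.3 CPM in APPPS1_NLRP3_12m and 29.9, 17.4, 24.8 and 19.04 CPM in NLRP3_12m, where replicate 43 was the lowest of all and the other 3 transgenic libraries were above NLRP3_12m (0.69 ± 0.45, adjusted p = 0.402).

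Among inflammasome and IL-1 family genes, 5 of 25 rose and 2 fell. Gsdmd, the pore-forming substrate of caspase-1, was at 116, 102, 115.4 and 95.4 CPM in APPPS1_NLRP3_12m and 146, 189.5, 147 and 129 CPM in NLRP3_12m. It was lower in every transgenic library (−0.49 ± 0.09, adjusted p = 2.92e-04), a call not made in the fit of the 8 libraries alone (adjusted p = 0.0943). At 6 months its difference was −0.04 ± 0.09 (adjusted p = 0.855), and the test of the 12-month minus 6-month difference gave −0.45 ± 0.13 (adjusted p = 0.27). Il1r1, the interleukin-1 receptor, was at 16.2, 12.1, 12.8 and 8.54 CPM in APPPS1_NLRP3_12m and 4.69, 3.63, 4.90 and 3.88 CPM in NLRP3_12m and rose by 1.49 ± 0.33, and the receptor antagonist Il1rn rose by 1.42 ± 0.38 (lost without 47). Nek7, the kinase that NLRP3 needs for assembly, rose by 0.43 ± 0.10, and Naip2, a sensor of another inflammasome with near-identical copies, by 0.49 ± 0.11. Of 21 complement genes 3 rose, the receptor chains Itgax and Itgb2 (0.56 ± 0.11) and C3ar1 (0.50 ± 0.15, lost without 43, 45 or 47).

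Some genes of resting microglia fell. Of 27 tested, 7 fell and 1 rose, with a median of −0.17, and 3 falls held in every leave-out. Crybb1, a crystallin used as a microglial marker, was at 77.5, 57.9, 73.0 and 86.6 CPM in APPPS1_NLRP3_12m and 126, 264, 113 and 134 CPM in NLRP3_12m. The shallow replicate 45 was the highest, and every transgenic library was below the other group (−1.07 ± 0.24, adjusted p = 0.00187). Ecscr, a small adhesion-related membrane protein, was at 112, 99.3, 91.6 and 82.9 CPM in APPPS1_NLRP3_12m and 164, 223, 152 and 187 CPM in NLRP3_12m (−0.97 ± 0.19, adjusted p = 2.58e-04). Tmem119, P2ry12 and the Alzheimer risk gene Bin1 differed by −0.46 ± 0.17, −0.44 ± 0.17 and −0.42 ± 0.11, of which Bin1 was called (lost without 45) and the others were not (adjusted p = 0.0704 and 0.0963). Without replicate 45, 3 members were called. Inhibitory receptors went both ways. Of 20, 4 rose and 3 fell. Siglecg was at 2.55, 2.59, 2.09 and 1.18 CPM in APPPS1_NLRP3_12m and 7.07, 9.44, 6.05 and 7.69 CPM in NLRP3_12m and Siglece, which binds sialic acid and restrains microglia, at 37.8, 40.8, 40.3 and 44.2 CPM in APPPS1_NLRP3_12m and 88.3, 114, 68.7 and 82.8 CPM in NLRP3_12m. Both were lower in every transgenic library (−1.81 ± 0.31, adjusted p = 5.36e-05 and −1.10 ± 0.21, adjusted p = 2.22e-04), and the lectin gene Clec4a2 fell by 0.83 ± 0.20. By contrast Cd22, another sialic acid receptor, was at 57.8, 48.1, 53.5 and 43.6 CPM in APPPS1_NLRP3_12m and 24.3, 15.97, 15.4 and 15.1 CPM in NLRP3_12m and rose by 1.496 ± 0.28, adjusted p = 2.22e-04. Siglecf and the B cell coreceptor Cd72 rose by 1.08 ± 0.25 and 0.86 ± 0.20.

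Of 26 tested phagocytic and pattern receptors 4 rose and 1 fell, and the call of Axl was the 1 that held in every leave-out. Over all genes 5.56% rose and 3.17% fell, and the lists that follow had at most 2 calls in either direction. Among 18 receptors for purines and other metabolites 2 rose and 2 fell. P2rx4, an ATP-gated channel, rose by 0.68 ± 0.11 and Hcar2, the receptor for niacin and ketone bodies, by 1.67 ± 0.34. P2ry6, which binds UDP and triggers phagocytosis, was lower at −0.37 ± 0.11 (lost without 42, 44, 45 or 49). In TGF-beta signalling 1 of 19 rose, the receptor Tgfbr2 (0.47 ± 0.16, lost without 43, 44, 45, 46, 47 or 48), beside a median of −0.21. In the iron and redox list 2 of 21 rose, among them the ferritin heavy chain Fth1 (0.63 ± 0.16), and 2 fell, among them the iron exporter Slc40a1 (−0.40 ± 0.13, lost in 7 of the 8 leave-outs).

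Cell cycle genes were raised together. All 27 tested had positive differences, 15 were called higher and 0 lower, and the median was 0.92. Cdk1, which drives entry into mitosis, was at 17.03, 15.8, 14.3 and 12.4 CPM in APPPS1_NLRP3_12m and 4.995, 3.63, 4.02 and 5.07 CPM in NLRP3_12m and did not overlap (1.69 ± 0.27, adjusted p = 1.59e-05). Birc5, needed for chromosome segregation, rose by 2.06 ± 0.39, Ccna2 by 0.92 ± 0.18, Aurkb by 1.93 ± 0.41, Top2a by 1.37 ± 0.31 and the proliferation marker Mki67 by 1.30 ± 0.35 (lost without 48). These were low transcripts, with Mki67 at 13.3, 22.3, 21.2 and 14.1 CPM in APPPS1_NLRP3_12m and 9.99, 6.53, 6.32 and 5.76 CPM in NLRP3_12m. Of 18 Bcl2 family members 3 rose, Bcl2 by 1.15 ± 0.22, the pro-apoptotic Pmaip1 by 1.05 ± 0.22 and Bcl2a1d by 1.23 ± 0.37 (lost without 43, 47 or 48, a member of a cluster of near-identical copies). Among 20 ribosomal protein genes 11 rose and all 20 were positive (median 0.53), but 4 calls held in every leave-out and 4 to 15 were made when 1 library was left out. In the integrated stress and unfolded protein response 4 of 20 rose, led by Sdf2l1 (0.94 ± 0.16, adjusted p = 3.75e-05), and 1 fell, Herpud1 (−0.54 ± 0.14, lost without 43), and 2 to 6 were called when 1 library was left out. In the list of APP processing and amyloid degradation 2 of 18 rose. Aplp2, a relative of App, was at 688, 661, 637 and 573 CPM in APPPS1_NLRP3_12m and 209.6, 176, 228 and 196 CPM in NLRP3_12m, without overlap and a rise of 1.64 ± 0.20, adjusted p = 5.58e-08. The secretase subunit Ncstn rose by 0.43 ± 0.11. App itself differed by 0.21 ± 0.12, adjusted p = 0.335 and was not called, and the counts were not separated into mouse and human transcripts.

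**Figure D4:**
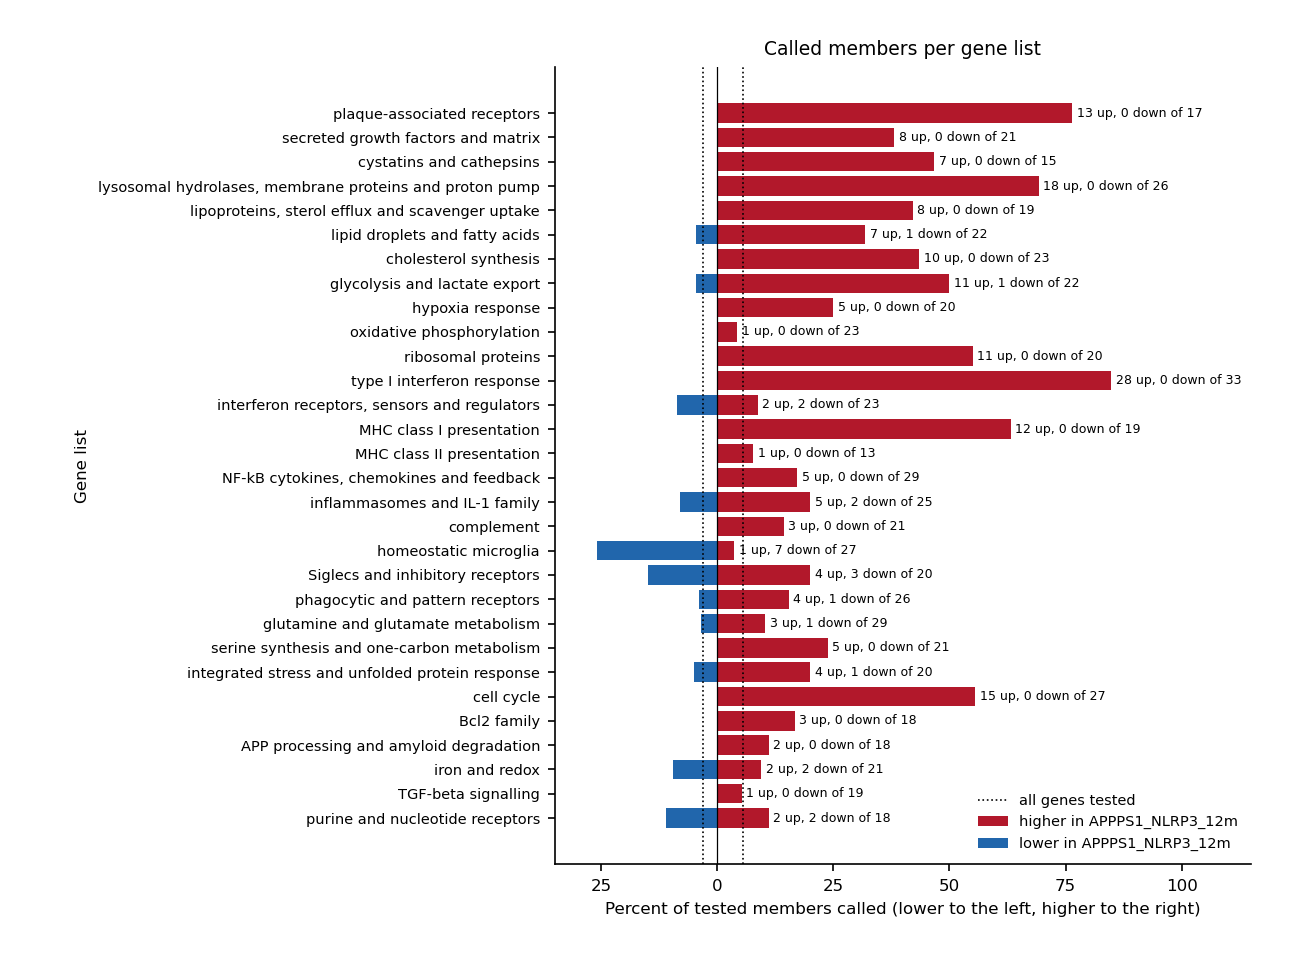
Percent of tested members called higher (red, right) and lower (blue, left) in APPPS1_NLRP3_12m for 30 gene lists, with the counts beside each bar and dotted lines at the share of all genes tested, 5.56% higher and 3.17% lower. In the type I interferon list 28 of 33 members were higher, and in the plaque-associated receptors 13 of 17.

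Among called genes averaging at least 5 CPM in either group, predicted or unnamed genes aside, 5 of the 8 largest falls lost their call without at least 1 library. Over all called genes, 36 falls lay below −3. Mapk4 fell by 2.32 ± 0.61 (lost without 47), the heme enzyme Alas2 by 2.16 ± 0.71 (lost without 43, 44, 45 or 47), the peptide hormone Apln by 2.02 ± 0.55 (lost without 43, 46 or 47), Mboat2 by 1.93 ± 0.55 (lost without 43, 46 or 47) and the kinase Stk39 by 1.82 ± 0.53 (lost without 44, 47 or 48). Within the second title number 2 alone, where replicate 42 was the only NLRP3_12m library, the differences of Mapk4 and Stk39 turned to 0.35 and 0.63. Sod3, extracellular superoxide dismutase, was at 1.12, 1.32, 1.77 and 1.46 CPM in APPPS1_NLRP3_12m and 0.853, 1.45, 11.4 and 8.83 CPM in NLRP3_12m. Its fall of 2.13 ± 0.47 rested on replicates 47 and 48, which were high, while replicates 42 and 45 lay within or under the range of the transgenic libraries, and within number 2 alone the difference was 0.53. Pdgfrb, a pericyte marker, fell by 1.95 ± 0.45. Lfng was at 24.99, 23.9, 24.3 and 37.1 CPM in APPPS1_NLRP3_12m and 49.4, 71.1, 61.8 and 80.7 CPM in NLRP3_12m and fell by 1.16 ± 0.17 without overlap. In the fit of the 8 libraries alone Mapk4, Apln, Mboat2, Stk39, Sod3 and Pdgfrb were not called, whereas Alas2, Siglecg and Lfng were.

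Markers of other cells moved with part of these falls. Of 12 astrocyte markers 4 fell and 0 rose, and 1 to 5 were called when 1 library was left out. Without replicate 47 none of these 4 was called, and 1 member of the list was called higher. Gja1, the gap junction gene of astrocytes, was at 13.9, 28.6, 27.6 and 41.2 CPM in APPPS1_NLRP3_12m and 35.1, 67.5, 121 and 64.1 CPM in NLRP3_12m, highest in replicate 47 (−1.42 ± 0.38, adjusted p = 0.0119, lost without 43 or 47). Astrocyte markers without Slc1a3 summed to 157.6 to 829 CPM in APPPS1_NLRP3_12m and 264.3 to 1526 CPM in NLRP3_12m. Of 10 oligodendrocyte markers 2 fell, of 13 endothelium and pericyte markers 3, and of 12 neuron markers 0 were called. T and NK cell markers summed to 6.44 to 11.3 CPM in APPPS1_NLRP3_12m and 16.7 to 19.3 CPM in NLRP3_12m, without overlap, and 1 of 8 tested fell, Klrd1 (−1.61 ± 0.41). In the erythroid list 1 of 5 fell, in the choroid plexus list 1 of 9, and no monocyte, border-associated macrophage, neutrophil or B cell marker was called. Over all genes 3.17% fell. Of 23 immediate-early genes 2 fell, Fosb and Jund, and neither call held in every leave-out. The neutrophil sum reached 1326 CPM in NLRP3_12m replicate 45, against 69.7 to 418.5 CPM in APPPS1_NLRP3_12m. No marker list had a gene at 0 in all 8 libraries, and the part of these cells in the falls was not tested.

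**Figure D5:**
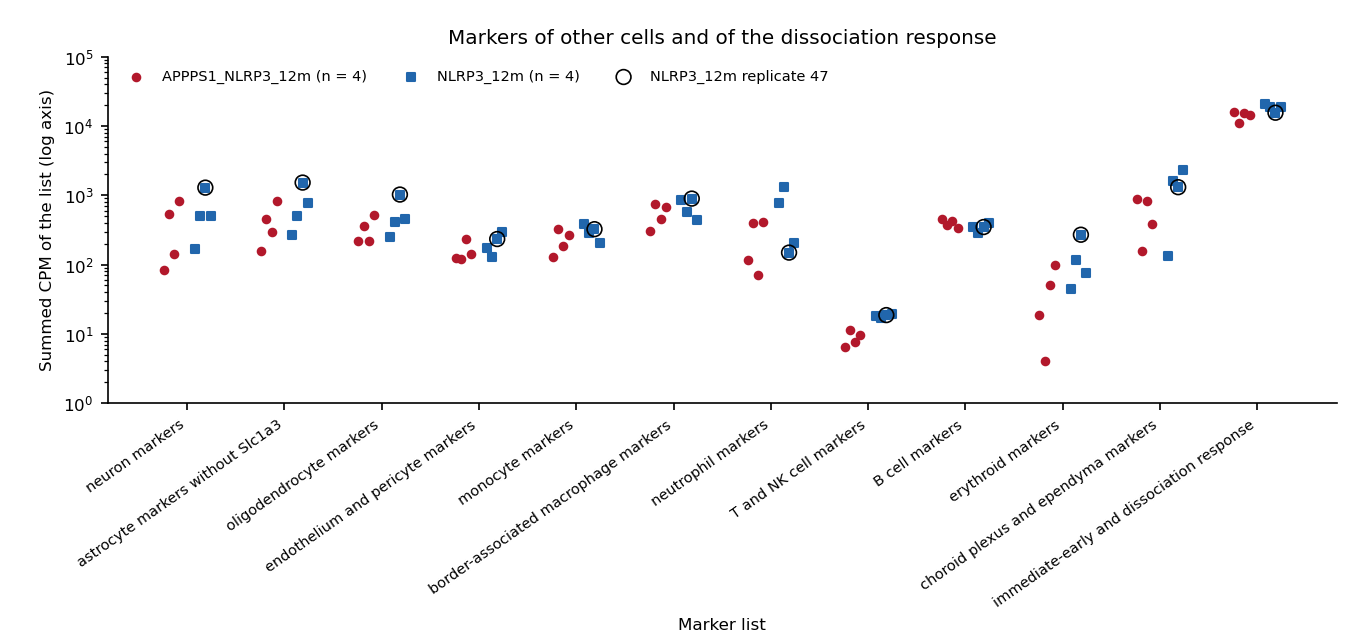
Summed TMM-scaled CPM (log axis) of 12 marker lists per library, in APPPS1_NLRP3_12m (red circles, n = 4) and NLRP3_12m (blue squares, n = 4), with NLRP3_12m replicate 47 ringed. Replicate 47 was the highest library for neuron, oligodendrocyte and erythroid markers and for astrocyte markers without Slc1a3, and T and NK cell markers were the list in which the groups did not overlap.

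No gene was shown by edgeR to differ in its transgene response between the untagged and the tagged pair. APPPS1_NLRP3_12m_Mxo4 minus NLRP3_12m_Mxo4 gave 1031 called genes (3.56% of genes higher, 1.63% lower). Of the 1735 genes called without the tag 717 (41.3%) were called in the same direction with it, which is 69.5% of the tagged calls, and 0 in the opposite direction. The difference of the differences, untagged minus tagged, was called in 0 genes by edgeR and in 1 by DESeq2, and 900 had an unadjusted p under 0.05 (4.53%, with 2.24% higher and 2.29% lower). The smallest p values were those of Arv1 at 1.37 ± 0.27 (adjusted p = 0.137), Ccdc66 at 1.15 ± 0.26 (adjusted p = 0.455) and Mrps2 at 0.56 ± 0.15 (adjusted p = 0.802). Il1b was called in the tagged pair, at 1.67 ± 0.37 (adjusted p = 0.00251), with 1953 ± 405.9 CPM in APPPS1_NLRP3_12m_Mxo4 and 614.2 ± 122 CPM in NLRP3_12m_Mxo4 (n = 3 each). At 6 months 1618 genes were called, of which 765 were shared in direction with the untagged 12-month comparison (44.1% of its calls and 47.3% of those at 6 months), and 1 was opposite.

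With intact Nlrp3, APPPS1_12m minus WT_12m gave 3601 called genes (11.1% of genes higher, 6.99% lower). Of the 1735 genes called without Nlrp3 1125 (64.8%) were also called there in the same direction, which is 31.2% of the 3601, and 1 was opposite. The groups with Nlrp3 were all female and those without it all male, so Nlrp3 and sex cannot be told apart in this contrast. Without minus with Nlrp3, the difference of the differences was called in 1 gene (0.00503%), where 1995 had an unadjusted p under 0.05 (10.0%, with 3.48% higher and 6.56% lower). It was Il1b, at −2.55 ± 0.47 (adjusted p = 0.0289), with 1728 ± 463.7 CPM in APPPS1_12m (n = 5) and 222.4 ± 70.8 CPM in WT_12m (n = 3). The call was lost in 7 of 18 leave-outs, and the number of genes called ran from 0 to 225 with 1 library left out, the highest without APPPS1_12m replicate 37. By list, ribosomal proteins had a median of 0.53 without Nlrp3 and 1.27 with it, and all 20 had an unadjusted p under 0.05 for the difference. Oxidative phosphorylation genes had medians of 0.08 without Nlrp3 and 0.46 with it, and 15 of 23 had such a p. APPPS1_12m replicate 41 held the lowest total of its group, 6187249 counts. No count by list in this contrast was repeated with a library left out, and members of a list are not independent of each other. The interferon list had medians of 1.43 without Nlrp3 and 1.48 with it, with 4 of 33 under 0.05, and the plaque-associated receptors 1.42 without and 2.00 with it, with 3 of 17 under 0.05. The NF-kB list had medians of 0.02 without Nlrp3 and 1.02 with it, with 14 of 29 under 0.05.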

How the data were processed

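RNA of CD11b+ mouse brain cells was amplified with SMART-Seq v4 and sequenced as paired reads, per the labels' protocols. The submitters' processing notes name Trimmomatic, TopHat, HTSeq and mm10, and strand use is not given in the sources used here, so reads of antisense genes cannot be separated. The deposited values are counts per gene for 62 libraries. Of 53801 identifiers, 53620 were paired with a symbol through GENCODE vM21, which also gave coordinates (GRCm38).

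All 62 libraries entered 1 fit of edgeR 4.0.16 (R 4.3.3, TMM, filterByExpr with minimum counts of 10 and 15), with 1 coefficient for each group and another for the title's second number. A nearly empty library, APPPS1_6m replicate 21 with 659 counts, was among them, and without it 1772 genes were called in the main comparison. Calls were made where the quasi-likelihood test's Benjamini-Hochberg adjusted p was under 0.05, and errors of log2 differences are standard errors from its F. Levels are CPM with TMM factors. Named genes were Nlrp3, App, Prnp and Thy1, the 8 largest rises and falls among called genes averaging at least 5 CPM in either group, the 4 called members of each list with the smallest adjusted p and the genes of the difference tests. The comparison and the lists were chosen with earlier results of these data known. A few genes of the rule are not reported here.

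Alternatives were RLE factors, no filter, other title terms, DESeq2 1.42.0, limma 3.58.1 voom with quality weights, fewer libraries and leaving out each library. In simulated counts 70 of 100 genes changed by a log2 of 1 and 94 of 100 changed by 2 were recovered for the 12-month comparison, with 8 false calls among 19421 genes. Changed genes were drawn above 2 CPM, with the spread estimated from these data. Apart from them no gene differed between groups or title numbers, so the rates describe a simpler case than the data. Totals of the 8 libraries ran from 1394435 to 25282933. Intervals of count ratios are exact and cover counting error only. Tables used Python 3.11.15, pandas 2.3.3 and matplotlib 3.10.9.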

Additional observations from a re-analysis of the deposited data

Results flagged for a closer look

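A single library passed a test for distance from the other 3 of its group for 30 of the genes examined, in 31 of 294 groups of 4 libraries. The gap to the nearest library passed Dixon's 95% critical value, and chance flags about 1 in 20 groups. Each value is followed by the range of the other 3 libraries. Some rest on few counts. Trpm1 and Trpm6 in replicate 47 had 2 counts each against 0 in the other libraries, where any count passes the critical value, and Minar1 in the shallow replicate 45 had 1 count, so these 3 values do not show a library that stands apart. In APPPS1_NLRP3_12m replicate 43, these were Igf1 at 201 CPM (97.8 to 112), Rplp0 at 406 CPM (324 to 336), Tmem173 at 341 CPM (314 to 318) and Slc1a3 at 202 CPM (2160 to 2478). In APPPS1_NLRP3_12m replicate 44, this was Jund at 159 CPM (254 to 256). In APPPS1_NLRP3_12m replicate 46, these were App at 347 CPM (271 to 281) and Pdgfrb at 4.56 CPM (0.76 to 1.07). In APPPS1_NLRP3_12m replicate 49, these were Nlrp3 at 2.27 CPM (0.492 to 0.757), Cst7 at 1096 CPM (1651 to 1746), Gusb at 606 CPM (790.5 to 817), Ch25h at 34.4 CPM (57.6 to 58.7), Fosb at 137 CPM (56.05 to 65.97), Klrd1 at 5.36 CPM (1.96 to 2.23) and Lfng at 37.1 CPM (23.92 to 24.99). In NLRP3_12m replicate 42, these were Cxcl16 at 175 CPM (118 to 125), Ptgs2 at 65.7 CPM (32.55 to 37.02), Cd22 at 24.3 CPM (15.1 to 15.97) and Gart at 42.8 CPM (33.39 to 34.98). In NLRP3_12m replicate 45, these were App at 325 CPM (230.5 to 244), Baiap2l2 at 4.36 CPM (0 to 0.171), Minar1 at 0.726 CPM (0.0442 to 0.114), Crybb1 at 264 CPM (113 to 134), Got1 at 73.3 CPM (41.5 to 46.8), Fth1 at 2593 CPM (2180 to 2215) and Mag at 49.4 CPM (25.8 to 29.6). In NLRP3_12m replicate 47, these were Trpm1 at 0.0883 CPM (0), Trpm6 at 0.0883 CPM (0), Dkk2 at 0.486 CPM (0 to 0.0609), Pgam1 at 180.3 CPM (158 to 161) and Ly6c2 at 4.15 CPM (7.37 to 7.99). In NLRP3_12m replicate 48, this was Trib3 at 0.399 CPM (0 to 0.0609).

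The transgene difference without Nlrp3 was lower at 12 than at 6 months, by the test of the difference of the log2 differences, for Cd83 −1.56, Tnf −1.78, Dusp2 −1.40, Il1b −2.02, Il1a −1.47, Rnf19b −1.17, Lfng −1.10, Nfkbib −1.36, Birc3 −1.07 and Marcksl1 −1.67. Without minus with Nlrp3 at 12 months, the same test called Il1b at −2.55, where sex and Nlrp3 cannot be told apart.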

How the results depend on the processing

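The 1735 genes called fell to 534 when the compared groups were fitted alone, 703 with the second title number 1 alone and 381 with 2 alone, and ran from 1179 to 1869 when 1 library was left out. The 11 genes of the 12-month minus 6-month difference became 1 with RLE size factors, 4 with the first title number as a term, 22 with DESeq2 and 23 with voom. They became 0 in the compared groups alone, 0 with number 1 alone and 0 to 27 with 1 library left out. The untagged minus Mxo4 difference was called in 0 genes, in 1 with DESeq2, and in 0 to 0 with 1 library left out, and it could not be fitted with number 1 alone. The without minus with Nlrp3 difference, called in 1 gene, gave 14 without a filter, 4 without the second title number and 0 with the first. It gave 92 with DESeq2, 7 with voom, 0 in the compared groups alone and 0 to 225 with 1 library left out. With number 1 alone replicate 40 was the only WT_12m library, so no count is given there. The causes of these shifts were not tested. The fits of fewer groups or 1 title number also held fewer libraries.

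With number 2 alone, where replicate 42 was the only NLRP3_12m library, the log2 difference turned to −0.65 for Nlrp3, 0.35 for Mapk4, 0.53 for Sod3 and 0.63 for Stk39. Thy1, not called, turned to −0.14 without the second title number, −0.45 with voom, −0.22 with number 1 alone, and between −0.30 and 0.54 with 1 library left out (−0.25 and −0.18 without replicates 49 and 44). Over 133 gene results, 2188 alternative values kept direction and call, 325 lost the call, 3 gained it and 10 turned. No paired analysis was possible because no replicate number is shared between groups. NLRP3_12m replicate 45 limits low genes, where 1 count is 0.726 CPM.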
